A study of Mus musculus with 40 samples.

Results

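The saline controls of a mucositis study in mice were compared between the days of sacrifice, with 10 mice killed on day 7 set against 10 killed on day 3. These 20 arrays were all the saline arrays of a series of 40, and they were taken by their titles. The 4 groups were KO-NaCl7, KO-NaCl3, WT-NaCl7 and WT-NaCl3, with 5 mice each. KO mice were Sftpd-/-, backcrossed more than 10 generations to C57BL/6N, and WT mice were their Sftpd+/+ littermates. All mice were female, aged 10 to 12 weeks, housed singly before the experiment, and given 1 intraperitoneal injection at day 0. The 20 mice described here received isotonic saline, in a volume matched to that of doxorubicin at 20 mg/kg in the other 20 mice. Total RNA of the jejunum, taken from the middle part of the small intestine, was hybridized with 1 array per mouse. As no mouse received drug, the comparison asks how far the baseline itself moved between the 2 days of sacrifice. The hour and the calendar date of sacrifice are not given in the sources used here, so that day after injection and any date of harvest cannot be told apart.

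The jejunal mucosa is a sheet of absorptive enterocytes that take up sugars, peptides and amino acids, renewed from crypts that also hold Paneth cells. Tuft cells, goblet cells and enteroendocrine cells lie scattered between the enterocytes, and lymphocytes sit within and beneath the sheet. Many transporters of enterocytes follow a daily rhythm set by feeding and by the circadian clock, in which BMAL1 (encoded by Arntl) with its partners activates the Per and Cry genes, and the Per and Cry proteins act back on it. Sftpd encodes surfactant protein D, a collectin of mucosal defence. In whole tissue, fewer cells of a type and less RNA per cell cannot be told apart.

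Correlations between 2 saline arrays lay between 0.9752 and 0.9948. The median signal averaged 4.48 ± 0.067 at day 7 and 4.49 ± 0.054 at day 3 (SD, n = 10 each, difference -0.017, 2-sided permutation p = 0.559). The interquartile range and the mean correlation of an array with the others also gave permutation p-values of 0.385 and 0.266, and all 3 were 0.559 after adjustment over the 3 measures. These tests pooled the genotypes. The median signal differed by -0.062 within KO mice (permutation p = 0.0635) and by 0.028 within WT mice (permutation p = 0.421). The 10 enterocyte markers were bright in every group, with a mean level between 17.2 and 17.8 in the 20 mice, and digestive enzymes of the pancreas averaged between 4.53 and 5.24. Sftpd itself was between 3.83 and 4.31 in all 20 saline mice, KO and WT alike, and thus at the level of the background probe sets (mean 3.47), so that this probe set gives no check of the genotype. KO-NaCl3 mouse 254 stood apart in its cell markers, WT-NaCl3 mice 44 and 46 in their gasdermins, and WT-Dox7 mouse 102 in several genes for which it lay apart from the other doxorubicin mice. List counts are also given without the saline mice that moved them, and the doxorubicin counts without mouse 102.

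Averaged over genotype, no transcript cluster passed the adjusted threshold between day 7 and day 3. Of 65956 clusters tested in limma, 0 passed an adjusted p of 0.05 (0%), the smallest adjusted p was 0.277, and 4740 had an unadjusted p under 0.05. Typical differences were small, with 95% of the 36155 genes between -0.27 and 0.35 on the log2 scale and a median of 0. The 95% confidence interval reached a median of 0.207 to either side of the difference. Within KO mice 0 clusters passed (0%), with 4845 under an unadjusted p of 0.05 and a smallest adjusted p of 0.598. Within WT mice 7 clusters passed (0.0106%), 5 higher and 2 lower at day 7, with 4361 under an unadjusted p of 0.05. The difference between the 2 genotypes in the change from day 3 to day 7 gave 0 clusters (0%), with 4521 under an unadjusted p of 0.05.

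In WT mice, Cd55 and its neighbour Daf2 rose and Slc13a2 and Nampt fell between the days. Cd55 encodes decay-accelerating factor, a membrane protein that protects cells from complement. Its log2 signal was 15.08, 15.33, 15.70, 16.48 and 16.50 in WT-NaCl7 mice, against 12.79, 13.12, 13.47, 13.70 and 14.48 in WT-NaCl3 mice. All 5 WT-NaCl7 mice lay above all 5 WT-NaCl3 mice, and the log2 difference was 2.31 ± 0.32 (SE, adjusted p = 0.039). Signals were 15.11, 15.26, 15.28, 15.65 and 16.18 in KO-NaCl7 mice and 15.01, 15.30, 15.30, 15.74 and 15.99 in KO-NaCl3 mice. In KO mice the days overlapped fully, with a difference of 0.03 ± 0.32 (adjusted p = 0.991).

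Daf2, which RefSeq names Cd55b, is a mouse copy of the same gene. Its signal was 9.87, 10.12, 10.12, 10.21 and 10.39 in WT-NaCl7 mice, against 8.07, 8.21, 8.81, 8.86 and 9.23 in WT-NaCl3 mice (log2 difference 1.51 ± 0.24, adjusted p = 0.049). KO-NaCl7 mice had 9.26, 9.88, 9.95, 10.25 and 10.77, and KO-NaCl3 mice 9.48, 9.81, 10.07, 10.17 and 10.24. Again only the WT groups were apart. The predicted gene Gm15675 rose with them in WT mice (2.05 ± 0.30, adjusted p = 0.0477), but its cluster lies inside the RefSeq gene Cd55, so that it may read the same transcript. The 3 clusters lie side by side on the minus strand of chromosome 1 (GRCm38), Daf2 at chr1:130388528-130423009, Gm15675 at chr1:130429781-130437191 and Cd55 at chr1:130439027-130462744. Signals of such similar copies can share labelled RNA, and they are not independent measurements. The promoters are shown because Cd55 and its copy moved together. Each line gives the 300 bases around the RefSeq start (GRCm38.p6, minus strand, chr1:130462695-130462994 for Cd55 and chr1:130422994-130423293 for Cd55b), and the capitals mark the longest run of 24 bases that both hold.
Cd55: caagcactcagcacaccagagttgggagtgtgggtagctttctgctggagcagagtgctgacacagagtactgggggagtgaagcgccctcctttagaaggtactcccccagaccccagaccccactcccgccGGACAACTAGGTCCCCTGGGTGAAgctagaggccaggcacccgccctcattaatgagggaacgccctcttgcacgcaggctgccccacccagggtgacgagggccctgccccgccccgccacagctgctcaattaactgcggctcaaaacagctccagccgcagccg
Cd55b: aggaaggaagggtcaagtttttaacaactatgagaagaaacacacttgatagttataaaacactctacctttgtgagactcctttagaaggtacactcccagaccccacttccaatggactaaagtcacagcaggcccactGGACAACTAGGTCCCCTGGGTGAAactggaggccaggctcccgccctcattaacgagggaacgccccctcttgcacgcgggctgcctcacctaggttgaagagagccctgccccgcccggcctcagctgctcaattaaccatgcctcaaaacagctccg
Over the 267 bases that align between them, 225 are identical (84.3%).

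Slc13a2 encodes a sodium-coupled transporter of citrate and dicarboxylates at the apical membrane. It had 10.31, 11.50, 11.67, 11.71 and 11.81 in WT-NaCl7 mice, against 13.91, 13.99, 14.10, 14.27 and 14.96 in WT-NaCl3 mice (log2 difference -2.85 ± 0.44, adjusted p = 0.049). In KO-NaCl7 mice it had 10.16, 12.09, 12.41, 12.69 and 13.51, against 12.31, 12.74, 12.93, 13.28 and 13.61 in KO-NaCl3 mice (-0.80 ± 0.44, adjusted p = 0.716). The WT groups did not overlap, whereas the KO groups did. Its cluster is at chr11:78397087-78422217 on the minus strand.

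Nampt, the enzyme that starts the salvage of nicotinamide to NAD, was at 10.16, 10.20, 10.40, 10.40 and 10.56 in WT-NaCl7 mice, against 10.77, 11.19, 11.20, 11.38 and 11.40 in WT-NaCl3 mice (-0.84 ± 0.13, adjusted p = 0.049). In KO-NaCl7 mice it was 10.20, 10.46, 10.69, 10.74 and 10.76, and in KO-NaCl3 mice 10.55, 10.63, 10.70, 10.81 and 10.93 (-0.15 ± 0.13, adjusted p = 0.813). Edn1, which encodes the vasoconstrictor endothelin-1, was low in WT-NaCl3 mice. It had 7.23, 7.23, 7.28, 7.68 and 7.89 in WT-NaCl7 mice, against 5.18, 5.18, 5.32, 6.03 and 6.35 in WT-NaCl3 mice (1.85 ± 0.30, adjusted p = 0.049). KO-NaCl7 mice had 5.68, 6.54, 6.89, 6.97 and 7.54, and KO-NaCl3 mice 6.45, 6.82, 7.20, 7.32 and 7.47 (-0.33 ± 0.30). WT-NaCl3 levels of Edn1 lay below the highest of the 23 background probe sets (6.99). The clusters are at chr12:32820335-32853369 and chr13:42301270-42307990, both on the plus strand. Rgs4, a regulator of G protein signalling, also passed in WT mice (0.65 ± 0.10, adjusted p = 0.049), with all signals below the highest background.

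**Figure D1:**
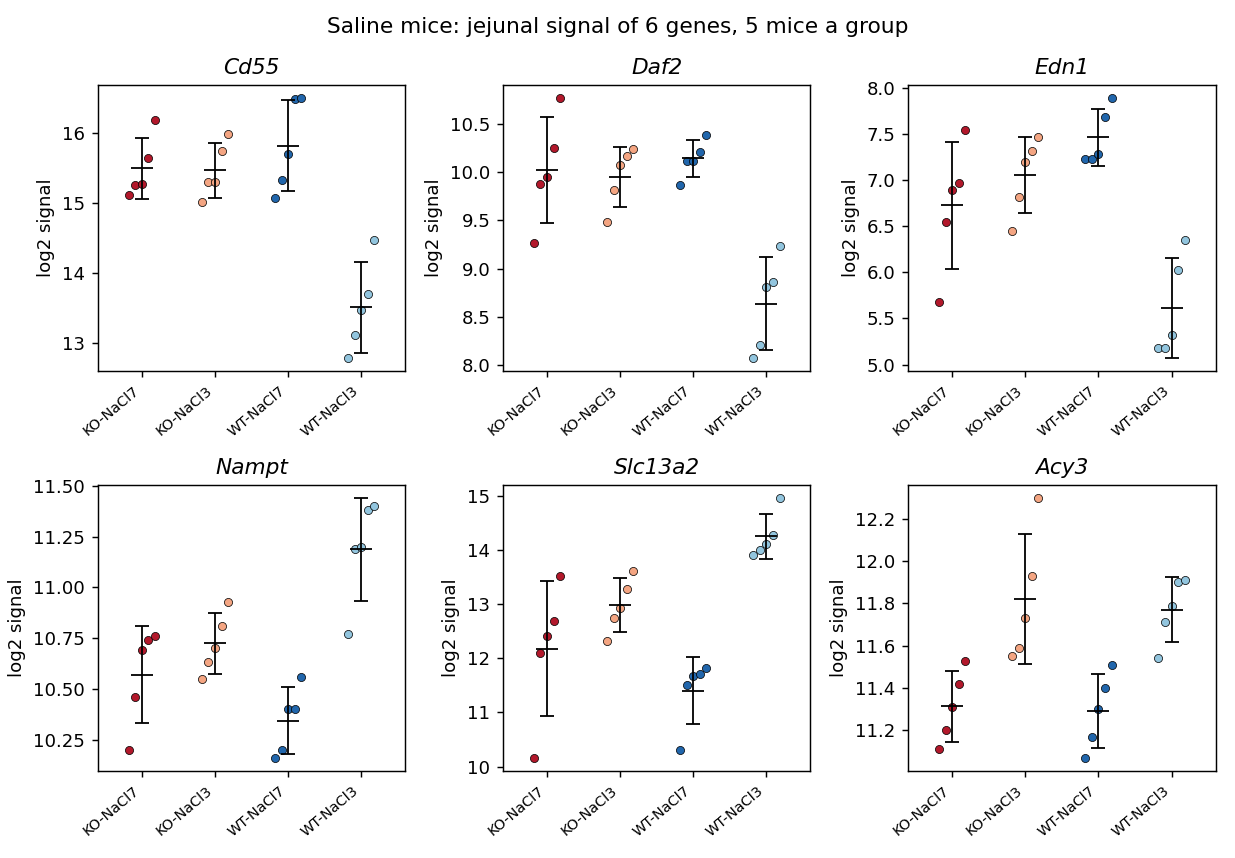
Log2 signal (y axis) of 6 genes in each mouse of the 4 saline groups (x axis), with the group mean and SD as bars (n = 5 each). For Cd55, Daf2, Edn1, Nampt and Slc13a2 the WT-NaCl7 mice stood away from the WT-NaCl3 mice, while for Acy3 both genotypes were lower at day 7.

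These 7 calls were close to the threshold. In WT mice, 269 clusters had all 5 day 7 mice above all 5 day 3 mice (0.408%) and 368 had them all below (0.558%). With variances from all 40 arrays, without moderation of the variances, with array weights or after a second quantile normalization, 0 of the 7 passed. Leaving out each of the 20 saline mice in turn gave between 0 and 30 calls in WT mice, and 0 for 11 of the mice. These were KO-NaCl3 mouse 292, KO-NaCl7 mice 200, 224 and 272, WT-NaCl3 mice 44, 46 and 190, and WT-NaCl7 mice 28, 104, 112 and 206. Without WT-NaCl3 mouse 170, 30 clusters passed, among them all 7, but 19 of the 30 were unnamed clusters with the same difference. Without WT-NaCl3 mice 44 and 46 together none passed, while the differences stayed at 1.90 for Gm15675 and -2.95 for Slc13a2. The genotypes were not shown to differ. The interaction had an unadjusted p of 6.21e-05 for Cd55 and 4.90e-05 for Edn1, and an adjusted p of 0.665 for each.

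The WT-NaCl3 levels of these genes, chosen for this look after their values were seen, were set beside the 20 doxorubicin mice. Cd55 was between 11.71 and 14.57 in 19 doxorubicin mice, between 12.79 and 14.48 in WT-NaCl3 mice, and between 15.01 and 16.50 in the other 15 saline mice. Slc13a2 was between 13.04 and 15.34 in the same 19 doxorubicin mice, 13.91 to 14.96 in WT-NaCl3 mice and 10.16 to 13.61 in the other saline mice. WT-Dox7 mouse 102 was the exception, with 16.95 for Cd55, 9.41 for Slc13a2 and 18.88 for Gsdmc2, each beyond the range of the 20 saline mice on the side away from the other doxorubicin mice. Ccng1, a p53 target that doxorubicin is known to raise, was between 15.22 and 16.08 in KO-Dox3 mice and between 15.24 and 15.72 in WT-Dox3 mice, against 11.88 to 12.59 in WT-NaCl3 mice and 11.79 to 13.58 in the other saline mice. It was between 12.08 and 13.61 in KO-Dox7 mice and between 12.13 and 13.01 in WT-Dox7 mice. Ccng1 thus set the Dox3 mice apart from all saline mice, WT-NaCl3 included, but did not separate Dox7 mice from saline mice. Eda2r, Mdm2 and Cdkn1a were also looked at. Eda2r was 4.32 to 4.68 in WT-NaCl3 mice, 4.12 to 5.75 in the other saline mice and 4.77 to 7.44 in the same 19 doxorubicin mice. In mouse 102 it was 4.52, and most of these levels lay below the highest background probe set (6.99). Mdm2 (9.58 to 10.97 in WT-Dox3 mice, 9.1 to 10.11 in all saline mice) and Cdkn1a (14.97 to 16 and 14.68 to 15.46) overlapped. Whether any treatment labels were exchanged was not tested. Between the days in doxorubicin mice, Cd55 differed by -0.21 (adjusted p = 0.822), and by -0.59 without mouse 102 (adjusted p = 0.127).

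**Figure D2:**
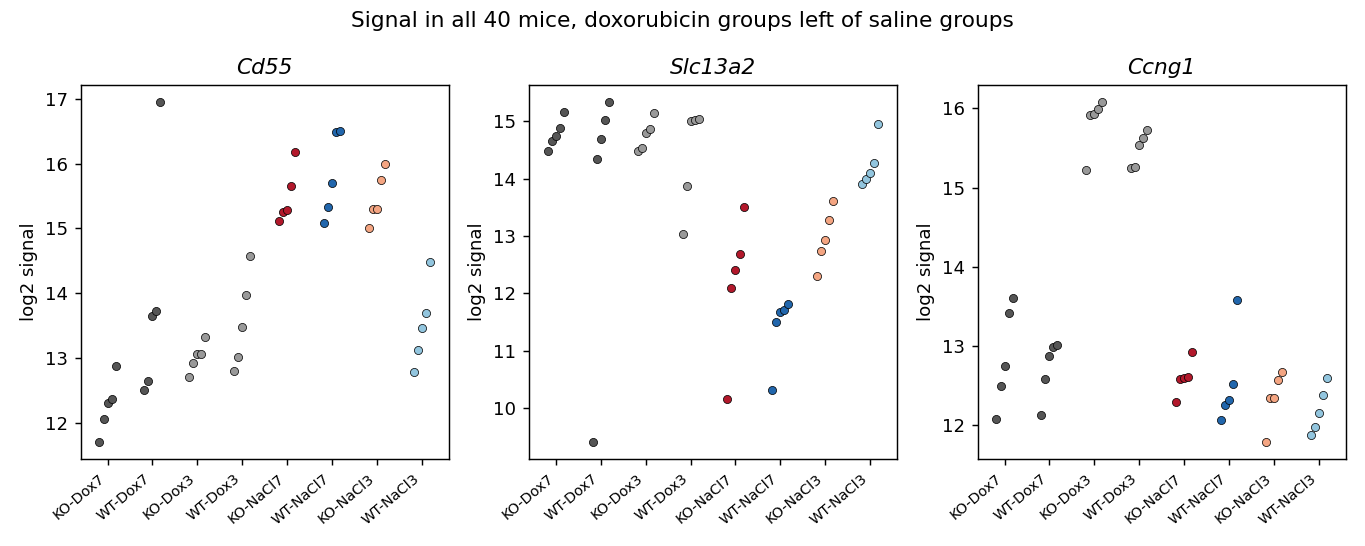
Log2 signal (y axis) of Cd55, Slc13a2 and Ccng1 in every mouse of the 8 groups (x axis), with doxorubicin groups left of saline groups. WT-NaCl3 mice (Cd55 12.79 to 14.48) overlap the doxorubicin mice for Cd55 and Slc13a2. For Ccng1 they lie below all Dox3 mice, at a level that Dox7 mice share, and WT-Dox7 mouse 102 (Cd55 16.95, Slc13a2 9.41) lies beyond the saline mice for the other 2 genes.

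Over both genotypes, genes were named by the smallest p among those above the highest background probe set with the same direction in KO and WT mice. None of them passed. The most even of these was Acy3, an enzyme that removes the acetyl group from N-acetylated aromatic amino acids and mercapturic acids. It had 11.11, 11.20, 11.31, 11.42 and 11.53 in KO-NaCl7 mice and 11.07, 11.17, 11.30, 11.40 and 11.51 in WT-NaCl7 mice, against 11.55, 11.59, 11.73, 11.93 and 12.30 in KO-NaCl3 mice and 11.54, 11.71, 11.79, 11.90 and 11.91 in WT-NaCl3 mice. All 10 day 7 mice lay below all 10 day 3 mice. This held for 3 clusters (0.00455%), the others being Gm15647 and an unnamed cluster, both at background level, and the opposite held for 0 (0%). The log2 difference of Acy3 was -0.49 ± 0.093 (SE, adjusted p = 0.309), with -0.51 in KO mice and -0.48 in WT mice. Also lower at day 7, and not passing, were Phlpp2, a phosphatase of the Akt kinase (-0.55 ± 0.10), and Slc16a10, a transporter of aromatic amino acids (-0.67 ± 0.13), each at an adjusted p of 0.309. Phlpp2 was between 10.56 and 11.30 at day 7 and between 11.07 and 11.86 at day 3. Slc13a2 and Nampt were also named among the lower genes, and Cd55 and Daf2 came first among the higher ones. The differences of these genes, described above, were larger in size in WT mice than in KO mice. Next among genes higher at day 7, Rin2, an exchange factor for Rab5, had a difference of 0.32 ± 0.081 (adjusted p = 0.467). Zfp36l1, a protein that binds AU-rich elements of mRNA, had 0.27 ± 0.073 (adjusted p = 0.502). The pseudogene Rpl21-ps7 had 0.43 ± 0.12 (adjusted p = 0.502), where signal of the parent gene cannot be told apart.

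In KO mice nothing passed. Genes were named by the smallest p in each direction among those whose higher group lay above the highest background probe set. Each had an adjusted p of 0.668. Higher at day 7 were the immunoglobulin segment Igkv1-133 (2.46 ± 0.61), the zinc finger gene Zfp934 (0.75 ± 0.19), the interferon-inducible Mndal (0.68 ± 0.19), Rpl21-ps7 (0.62 ± 0.16) and Hmgb1-ps3 (0.43 ± 0.12). Lower were Cml5, an acetyltransferase relative (-1.09 ± 0.37), Slc2a2, which encodes the basolateral glucose carrier GLUT2 (-0.65 ± 0.22), Acy3, Mcur1, a regulator of the mitochondrial calcium uniporter (-0.42 ± 0.14), and Slc35e2 (-0.38 ± 0.12). In KO mice 163 clusters had the day 7 mice all above the day 3 mice (0.247%) and 628 all below (0.952%). The median difference over all clusters was -0.048 in these mice. After a second quantile normalization 3267 clusters had an unadjusted p under 0.05 in limma, against 4845 before it. In WT mice, Grem1, an antagonist of BMP signals made by cells around the crypts, was higher at day 7 by 0.99 ± 0.22 (adjusted p = 0.28), and Peli1, a ubiquitin ligase of immune signalling, lower by -0.60 ± 0.11 (adjusted p = 0.115). Neither passed.

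No gene passed for the difference between genotypes in the change between days, and the 10 genes named for it each had an adjusted p of 0.665. Among them were 2 immunoglobulin segments. Igkv1-133 was between 12.53 and 15.21 in KO-NaCl7 mice and between 9.83 and 13.40 in KO-NaCl3 mice, but between 11.77 and 12.51 in WT-NaCl7 mice and between 13.01 and 15.20 in WT-NaCl3 mice. The interaction, as the KO minus the WT difference, was 4.25 for Igkv1-133, 4.08 for Igkv1-135, 0.93 for Dock11, 0.87 for Gvin1 and 0.58 for Peli1. It was negative for Edn1 (-2.18), Cd55 (-2.28), Daf2 (-1.44), the calcium-binding protein gene S100a6 (-0.998) and the mitochondrial ND6 (-0.96). Of the 40 genes with the widest spread within groups, 30 were immunoglobulin V genes. V segments resemble each other in sequence, and the array may not separate them.

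Transporters of sugars, peptides and amino acids had lower signals at day 7 than at day 3, though no member passed the adjusted threshold. Of 9 transporters measured, 7 were lower and 0 higher at an unadjusted p under 0.05, against 4.04% of all genes lower and 3.57% higher. Their median log2 difference was -0.33, against 0 over all genes. Slc2a2 was between 14.66 and 15.67 in KO-NaCl7 mice and between 14.18 and 14.94 in WT-NaCl7 mice, against 15.22 to 16.53 in KO-NaCl3 mice and 15.37 to 16.05 in WT-NaCl3 mice (both genotypes -0.80 ± 0.16, adjusted p = 0.334). The WT groups did not overlap and the KO groups did. The apical glucose carrier gene Slc5a1 differed by -0.23 ± 0.087 (adjusted p = 0.614), the fructose carrier gene Slc2a5 by -0.62 ± 0.27 (0.661), and the peptide carrier gene Slc15a1 by -0.37 ± 0.11 (0.573). In KO mice 1 of the 9 was lower at an unadjusted p under 0.05 (median -0.21), and in WT mice 6 were lower and 1 higher (median -0.49). None passed the adjusted threshold. The count stayed at 7 of 9 without KO-NaCl3 mouse 254 and at 7 of 9 without WT-NaCl3 mice 44 and 46. Of the 12 brush border enzymes, 3 were lower at an unadjusted p under 0.05, with a median of -0.15, and the 10 enterocyte markers had a median of -0.03 with 0 lower and 1 higher.

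The levels of Arntl and Dbp spread widely within each group. Arntl was between 8.95 and 10.63 in KO-NaCl7 mice and 8.91 and 10.72 in WT-NaCl7 mice, against 7.46 to 10.61 in KO-NaCl3 mice and 7.18 to 10.52 in WT-NaCl3 mice (0.74 ± 0.44, adjusted p = 0.769). Dbp, a transcription factor at the output of the clock, was between 6.10 and 9.05 over the 10 day 7 mice and between 6.46 and 10.89 over the 10 day 3 mice (-1.39 ± 0.62, adjusted p = 0.671). The 2 genes ran opposite to each other across mice, with Pearson's r = -0.947 and Spearman's rho = -0.944 (n = 20 mice, permutation p = 1e-05 for each, the smallest that 100000 draws can give). Without the 2 mice farthest from the median of Arntl, r was -0.911 and rho -0.923 (n = 18). In the 10 KO mice r was -0.95 and rho -0.96 (permutation p = 3e-05 for each), and in the 10 WT mice r was -0.945 and rho -0.988 (permutation p = 3e-05 and 2e-05). Only this pair was tested, and it was chosen after its values were seen.

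**Figure D3:**
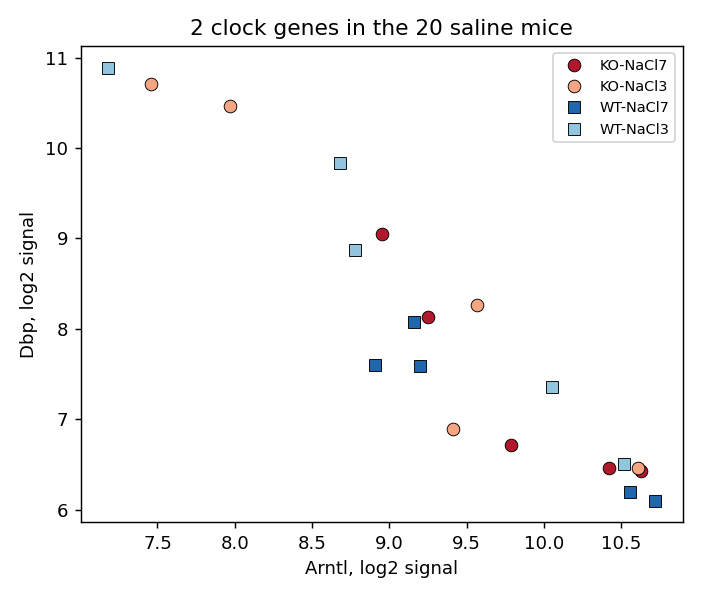
Log2 signal of Dbp (y axis) against that of Arntl (x axis) in the 20 saline mice, with circles for KO, squares for WT, dark symbols for day 7 and light symbols for day 3. Mice of all 4 groups lie along a falling band (r = -0.947), and the lowest Arntl (7.18) and highest Dbp (10.89) belong to 1 WT-NaCl3 mouse.

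Of the 12 core clock genes, 5 were lower at day 7 at an unadjusted p under 0.05 and 0 higher, with a median of -0.32. Over all genes 4.04% were lower and 3.57% higher. Per1, Per2 and Per3, the repressors, differed by -0.72 ± 0.26, -0.70 ± 0.25 and -0.59 ± 0.28, while the activator genes Clock and Npas2 differed by 0.06 and 0.55. Of the 8 output genes, 5 were lower and 0 higher, with a median of -0.33. Tef and Hlf, relatives of Dbp, differed by -0.39 and -0.37, and Usp2, a ubiquitin protease with a daily rhythm, by -0.67 ± 0.15 (adjusted p = 0.467). None passed. In KO mice 0 of the 12 core genes and 1 of the 8 output genes were lower, where 4.09% of all genes were lower. In WT mice 3 and 2 were lower, where 3.22% of all genes were. Arntl and Dbp were tied across mice, so that members of these lists need not be independent. The promoters of Per1, Tef and Per3 are shown because BMAL1 binds the E-box CACGTG, and Dbp, Tef and Hlf bind D-box elements. E-boxes (CACGTG, which reads the same on both strands) and D-boxes (TTATGTAA or TTACGTAA, both strands, no overlap with the E-box) are in capitals, on GRCm38.p6 at chr11:69098699-69098998 (plus strand), chr15:81811164-81811463 (plus strand) and chr4:151044616-151044915 (minus strand).
Per1: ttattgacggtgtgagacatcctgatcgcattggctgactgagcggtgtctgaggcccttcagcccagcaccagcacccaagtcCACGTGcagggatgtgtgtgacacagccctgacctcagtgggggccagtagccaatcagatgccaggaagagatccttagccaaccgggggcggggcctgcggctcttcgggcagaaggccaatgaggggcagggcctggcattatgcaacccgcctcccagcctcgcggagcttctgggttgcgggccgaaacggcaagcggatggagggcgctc
Tef: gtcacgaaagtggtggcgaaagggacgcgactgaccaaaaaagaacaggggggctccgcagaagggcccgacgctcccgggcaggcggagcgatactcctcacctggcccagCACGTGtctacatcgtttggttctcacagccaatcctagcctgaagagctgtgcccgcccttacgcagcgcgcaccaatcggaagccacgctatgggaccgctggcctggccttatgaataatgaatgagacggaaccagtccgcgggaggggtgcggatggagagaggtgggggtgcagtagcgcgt
Per3: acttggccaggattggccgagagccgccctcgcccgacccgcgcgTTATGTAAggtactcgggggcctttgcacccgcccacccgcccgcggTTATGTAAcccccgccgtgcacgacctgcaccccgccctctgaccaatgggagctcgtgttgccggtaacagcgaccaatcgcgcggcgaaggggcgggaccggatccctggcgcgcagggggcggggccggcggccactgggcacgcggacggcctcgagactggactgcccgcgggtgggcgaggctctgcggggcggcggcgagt
Of 32851 RefSeq promoters of this length, 7.15% held the E-box and 1.06% a D-box. Among 17 genes of the 2 clock lists with a promoter sequence, 5 held the E-box in at least 1 promoter (Bhlhe41, Ciart, Cry1, Per1 and Tef) and 1 the D-box (Per3). These counts are of genes and the percentages are of promoters, so that they cannot be compared directly. Tef has more than 1 promoter, and the one shown holds the E-box. A match describes letters only.

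In WT mice the gasdermin C genes were higher at day 7, again without passing. Gasdermins form pores in membranes, and the C family is expressed in intestinal epithelium. Gsdmc2 had 15.48, 15.75, 16.81, 17.89 and 18.58 in WT-NaCl7 mice, against 11.97, 12.44, 15.10, 15.42 and 16.18 in WT-NaCl3 mice (2.68 ± 0.80, adjusted p = 0.481). It had 16.14, 16.97, 17.00, 17.09 and 17.61 in KO-NaCl7 mice and 14.50, 15.75, 17.54, 17.60 and 17.68 in KO-NaCl3 mice (0.35 ± 0.80). WT-NaCl3 mice 44 and 46 held the 2 lowest values of all 20 mice. Gsdmc differed by 1.77, Gsdmc3 by 2.77 and Gsdmc4 by 2.54 in WT mice. With the phospholipase gene Pla2g4c, which spanned 5.46 to 18.85 over the saline mice, all 5 members of the list were higher in WT mice at an unadjusted p under 0.05, against 3.94% of all genes higher and 3.22% lower. The median of the list was 0.35 for KO mice and 2.68 for WT mice. Without WT-NaCl3 mice 44 and 46 the WT median was 1.34 (0 of 5 under an unadjusted p of 0.05), and without KO-NaCl3 mouse 254 the KO median was -0.18. Gsdmc2, Gsdmc3 and Gsdmc4 are close copies in 1 cluster of genes on chromosome 15, and the array may not separate them.

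Tuft cell markers, led by Dclk1, the ion channel gene Trpm5 and the transcription factor gene Pou2f3, had higher signals at day 7 in WT mice, and none passed. Dclk1 was 6.84, 7.14, 8.18, 8.76 and 8.79 in WT-NaCl7 mice and 6.41, 6.59, 6.80, 7.33 and 7.48 in WT-NaCl3 mice (1.02 ± 0.45, adjusted p = 0.731), with overlap. Of 9 markers, 6 were higher in WT mice at an unadjusted p under 0.05 (median 0.84), where 3.94% of all genes were higher. In KO mice the median was -0.39 with 0 of 9 under that p. The mean of the list ran from 6.04 to 7.42 in WT-NaCl7 mice and from 5.49 to 6.38 in WT-NaCl3 mice. Without WT-NaCl3 mice 44 and 46 the WT median was 0.64, with 0 of 9. Of 11 smooth muscle genes, 3 were higher in WT mice, with a median of 0.40, and again 0 without mice 44 and 46 (median 0.12). The mean of the smooth muscle list was between 11.5 and 12.2 in WT-NaCl7 mice and between 11.2 and 11.9 in WT-NaCl3 mice, and its part in the other differences was not tested.

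Genes of T cells, antigen presentation and the interferon response were lower at day 7 in WT mice, none past the adjusted threshold. Of 11 T cell genes, 9 were lower in WT mice at an unadjusted p under 0.05 with a median of -0.80. Over all genes 3.22% were lower and 3.94% higher in WT mice. In KO mice 2 were higher and 0 lower with a median of 0.29, where 3.78% of all genes were higher and 4.09% lower. Cd3e, a subunit of the T cell receptor complex, had 7.61, 8.56, 8.89, 9.07 and 9.64 in WT-NaCl7 mice and 8.95, 9.47, 9.66, 10.25 and 10.35 in WT-NaCl3 mice (-0.98 ± 0.36, adjusted p = 0.63). Cd8a, the co-receptor of cytotoxic T cells, differed by -1.04 and the protease genes Gzma and Gzmb by -1.44 and -1.61. Of 6 MHC class II genes, 5 were lower in WT mice (median -0.97), and in KO mice 0 were lower (median 0.29). H2-Aa was between 7.37 and 8.95 in WT-NaCl7 mice and between 8.69 and 9.83 in WT-NaCl3 mice. Of 16 interferon-response genes, 6 were lower in WT mice (median -0.50). Without WT-NaCl3 mice 44 and 46, the counts were 3 of 11, 0 of 6 and 0 of 16, with medians of -0.77, -0.69 and -0.22. Only 3 WT-NaCl3 mice enter those counts.

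**Figure D4:**
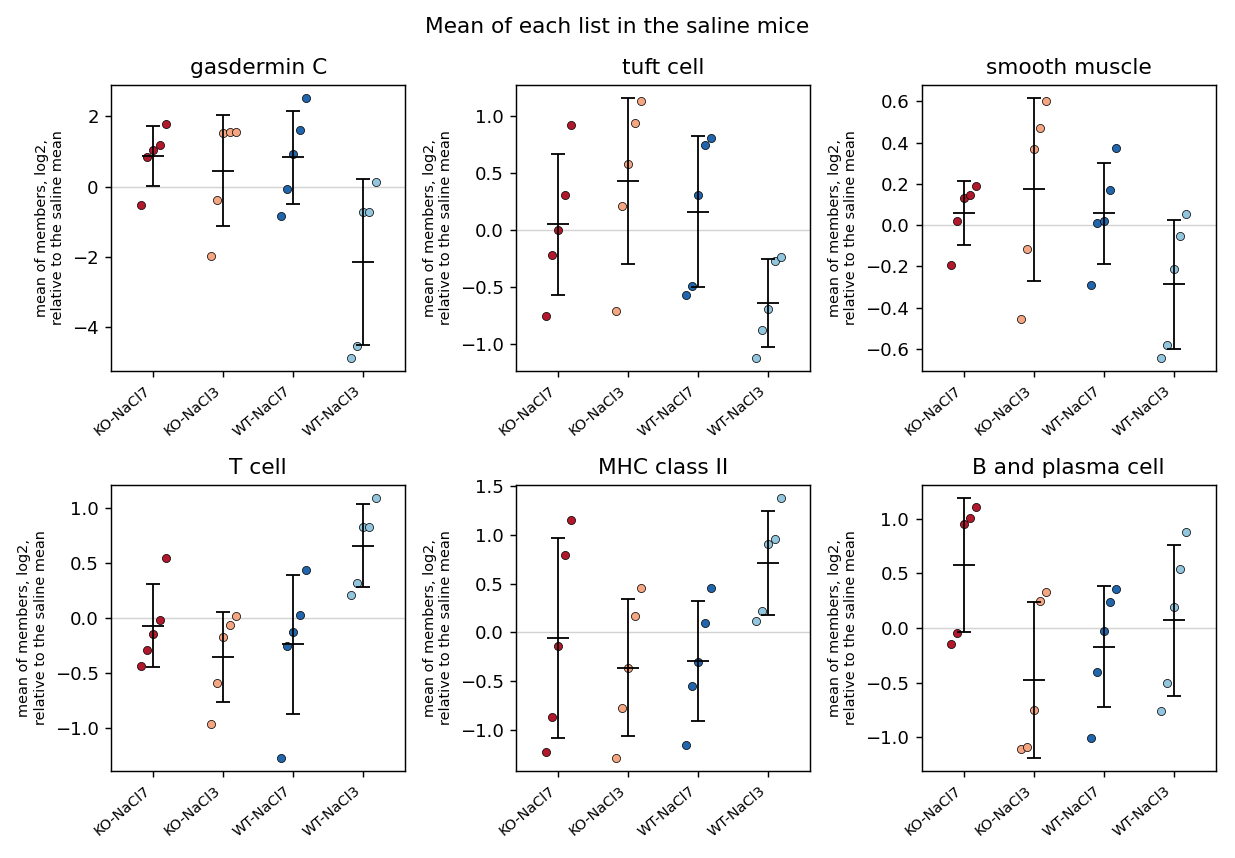
Mean log2 signal of the members of 6 gene lists in each saline mouse, relative to the mean of the 20 mice (y axis), by group (x axis), with the group mean and SD (n = 5). For the gasdermin C list WT-NaCl3 mice 44 and 46 lie far below all others (-4.55 and -4.88), while the other 3 mice of that group overlap the other groups, and all WT-NaCl3 mice lie above 0 for the T cell and MHC class II lists.

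Of 11 B cell and plasma cell genes, none passed the adjusted threshold. In KO mice 8 of them were higher at day 7 at an unadjusted p under 0.05, with a median of 1, where 3.78% of all genes were higher, and in WT mice 0 were higher and 1 lower, with a median of -0.16. Cd79a and Cd79b, which encode the signalling chains of the B cell receptor, differed by 1.11 and 1.22 in KO mice and did not pass (adjusted p = 0.668 for each). Without KO-NaCl3 mouse 254 the count was 2 of 11 and the median 0.86. That mouse also had the lowest Lyz1, the lysozyme of Paneth cells, at 16.18 against 18.92 to 19.92 in the other 19 mice. The mean of the 3 measured Paneth genes was between 17.39 and 17.99 in KO-NaCl7 mice, against 12.38 to 17.85 in KO-NaCl3 mice, and 16.61 to 17.85 there without mouse 254.

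Of 9 genes of fatty acid synthesis, none passed the adjusted threshold. In WT mice 5 of them were lower at day 7 at an unadjusted p under 0.05 (median -0.74), where 3.22% of all genes were lower, and in KO mice 1 was higher and 0 lower (median 0.14). Fasn, the fatty acid synthase, had 8.89, 9.64, 9.77, 9.82 and 10.03 in WT-NaCl7 mice, against 10.32, 10.70, 10.79, 11.82 and 12.11 in WT-NaCl3 mice (-1.52 ± 0.45, adjusted p = 0.477). The WT groups did not overlap. Scd1, which desaturates fatty acids, differed by -1.75, and Acaca, which makes malonyl-CoA, by -0.90. The markers of fat cells, which may be carried in with the mesentery, had a median of -0.19 in KO mice and -0.99 in WT mice, and their mean level was between 6.15 and 7.82 in WT-NaCl7 mice and between 7.54 and 8.91 in WT-NaCl3 mice. Fat marker levels moved with the lipid enzymes in WT mice, and their part was not tested. Without WT-NaCl3 mice 44 and 46, 4 of the 9 enzymes were lower (median -0.89).

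**Figure D5:**
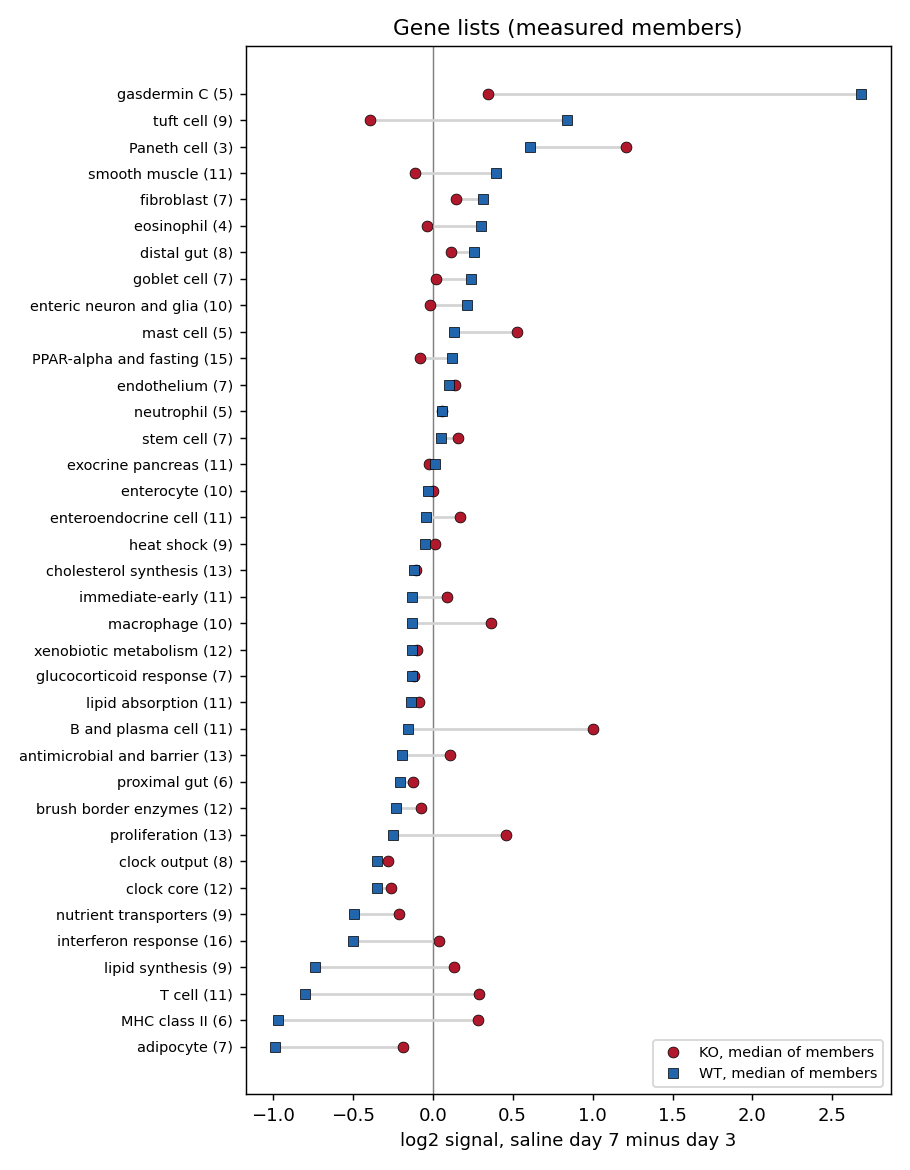
Median log2 difference between saline day 7 and day 3 (x axis) over the measured members of each gene list (y axis, number of members in brackets), in KO mice (circles) and WT mice (squares). Gasdermin C genes lay highest in WT mice (2.68), T cell (-0.80), MHC class II (-0.97) and adipocyte (-0.99) genes lowest, and the KO medians of these lists lay nearer to 0.

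The mice given doxorubicin showed how large a day difference could be in these data. Between day 7 and day 3 of doxorubicin, 6818 clusters passed (10.3%), and the day difference itself differed between doxorubicin and saline mice for 4847 (7.35%). Without WT-Dox7 mouse 102, left out after its values were seen, these counts were 6584 and 4894. Of the 4740 clusters with an unadjusted p under 0.05 between the saline days, 1717 had the same direction in doxorubicin mice. Of the 4740, 107 passed there in the same direction, and more passed in the opposite one. The share with the same direction over all clusters is not given beside these counts, so that they cannot show a reversal of the saline differences. Whether clusters that moved between the saline days were reversed in doxorubicin mice more often than other clusters was not tested. Phlpp2, at -0.55 between the saline days, rose between the days in doxorubicin mice (0.99 ± 0.15, adjusted p = 5.82e-06), and Slc2a2, at -0.80 in saline mice, fell in doxorubicin mice (-1.24 ± 0.22, adjusted p = 7.21e-05). Of the 7 genes called in saline WT mice, 0 passed between the doxorubicin days over both genotypes.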

How the data were processed

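The authors hybridized jejunal RNA of each mouse to a Mouse Transcriptome Array 1.0 and deposited log2 signals of 72688 probe sets, normalized by RMA per the labels, whereas the methods name normexp and quantile normalization. Deposited tables of the authors' own fold changes and p-values were not used, save for gene names and an identity check of the probe sets (r = 0.9995). All columns were mapped to samples. After removal of 6732 control probe sets, 65956 transcript clusters were fitted in limma 3.58.1 (R 4.3.3) with a mean for each of 4 saline groups, empirical Bayes moderation and Benjamini-Hochberg adjustment over all clusters at 0.05. The doxorubicin contrasts came from the same fit over 8 groups and 40 arrays. A gene was its brightest cluster with 1 symbol (36155 genes), and 36559 clusters carried 1 symbol, 3042 several and 26355 none. Of 28783 clusters whose symbol RefSeq holds, 99.1% overlapped that gene on GRCm38.p6. Of 356 genes in the lists, 331 were measured, 3 of them through an older symbol.

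Genes were named by the smallest p among those with 1 symbol that is not a predicted one and a higher group above the highest background probe set, up to 5 each way for each comparison, plus members of the lists. In the comparison over both genotypes they also had the same sign in KO and WT mice. Members and lists were chosen with earlier results of these data known. Array measures were compared by permutation (SciPy 1.17.1, Python 3.11.15), and promoters were aligned with Biopython 1.88. The number of arrays limits the precision, and p-values set differences against the spread between these mice. The fit was tested on simulated data. Alternatives covered the samples, variance model, normalization, brightness and symbol filters, and each mouse left out. Some items are not reported here.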

Additional observations from a re-analysis of the deposited data

Results flagged for a closer look

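In 28 genes, each of the 4 saline groups was tested for a mouse that stood apart from the other 4 by Dixon's criterion, and 3 of 112 groups were picked out (2.68%), where chance picks out about 1 in 20. Slc13a2 was 10.31 in WT-NaCl7 mouse 206, with the nearest mouse at 11.5. Slc5a1 was 17.44 in WT-NaCl7 mouse 28, with the nearest mouse at 17.9. Cd3e was 10.11 in KO-NaCl7 mouse 42295, with the nearest mouse at 8.94.

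For 9 of the 28 genes the day difference itself differed between doxorubicin and saline mice in limma's fit of 40 arrays. Over all clusters 7.35% did. The contrast is given here as the doxorubicin minus the saline difference on the log2 scale. It contains the saline difference, so that it is no independent test of genes named for that difference, such as Daf2 and Phlpp2. It was negative for Daf2 (-1.07, adjusted p = 0.0286) and Rpl21-ps7 (-0.766, adjusted p = 0.00455). It was positive for Phlpp2 (1.536, adjusted p = 4.76e-06), Slc16a10 (1.199, adjusted p = 0.00421), Slc2a5 (1.092, adjusted p = 0.0368) and Scd1 (2.839, adjusted p = 0.0285). For the gasdermins it was 3.758 for Gsdmc2 (adjusted p = 0.0343), 3.549 for Gsdmc3 (adjusted p = 0.0464) and 4.032 for Gsdmc4 (adjusted p = 0.0170). Without WT-Dox7 mouse 102, an alternative chosen after seeing the data, Gsdmc2 and Gsdmc3 no longer passed (3.19 and 2.97, adjusted p = 0.0519 and 0.0693), the other 7 did, and Cd55 (-1.76, adjusted p = 0.000422), Edn1 (-1.36, adjusted p = 0.00167), Slc13a2 (2.06, adjusted p = 0.000828) and Acy3 (0.70, adjusted p = 0.0307) passed as well.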

How the results depend on the processing

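The 7 calls in WT mice depended on the processing. Their number was 0 with all 40 arrays, without moderation, with array weights, after a second quantile normalization and without WT-NaCl3 mice 44 and 46, 2 with trended robust variances, 2 with arrays centred on their median, and 3 with the interquartile range as a covariate. It was 7 among the brighter clusters and among those with 1 symbol. With the Dbp minus Arntl signal as a covariate, chosen after seeing the data, 162 clusters passed, including all 7. The cause was not tested. Leaving out each mouse gave 0 to 30 calls in WT mice and 0 to 1 over both genotypes, the 1 being an unnamed cluster without KO-NaCl3 mouse 292 (-0.781, adjusted p = 0.0251), and 0 in KO mice and for the difference between genotypes. The comparisons over both genotypes, in KO mice and between genotypes gave 0 calls under every other alternative run. The same covariate turned the differences of Clock to -0.01875 and of Npas2 to -0.1133, and the median array signal turned to 0.028 within WT mice, against -0.017 over both genotypes. Of 2417 alternative values of named genes, 2244 kept direction and side of the threshold, 157 lost and 14 gained a call, and of 3402 list medians 8 moved by more than the spread between mice. No paired analysis was possible because mouse numbers are not shared between groups. Signals near the background probe sets, as for Edn1 and Rgs4, limit the folds that could be seen.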
